A study of Canis lupus familiaris with 6 samples.

Results

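The enzymes described here build mucin-type O-glycans and the sugar chains of proteoglycans, and they were chosen by their gene symbols alone. The symbol families are GALNT, C1GALT1, GCNT, ST3GAL, ST6GAL and ST6GALNAC, B3GNT, B4GALT, CHST, CHSY, CHPF, CSGALNACT, XYLT, EXT and EXTL, the heparan sulfate HS2ST, HS3ST and HS6ST names, and NDST. They found 81 of the 30951 genes in the tables, which hold 16036 different symbols. Of these 81 genes, 57 had enough counts to be tested, 14 had no count in any library and 10 had at most 9 counts in any library.

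The libraries are bulk RNA-seq of canine melanoma cell lines. CMM12 was sequenced as podoplanin KO#2, podoplanin KO#1 and a control of genotype WT, and CMM2 in the same way, with 1 library each. The labels do not say how the knockouts (KO) were made, whether a KO line is a single clone, or whether the libraries came from separate cultures, and the p-values below therefore speak only of the spread among these 6 libraries, part of which may be technical. In bulk RNA, fewer cells of a kind and less RNA per cell cannot be told apart.

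Mucin-type O-glycosylation starts in the Golgi, where GALNT enzymes attach N-acetylgalactosamine (GalNAc) to serine or threonine. C1GALT1, which needs its chaperone C1GALT1C1, adds galactose to make core 1, and GCNT enzymes branch it, while B3GNT and B4GALT enzymes extend chains with N-acetyllactosamine and ST3GAL, ST6GAL and ST6GALNAC enzymes cap them with sialic acid. Proteoglycans carry glycosaminoglycans on a xylose-primed linker, which CHSY and CHPF proteins lengthen as chondroitin and EXT proteins as heparan, before NDST, HS3ST, HS6ST and CHST enzymes add sulfate. Podoplanin is itself a mucin-like protein, and in human cells its binding to the platelet receptor CLEC-2 depends on a sialylated core 1 O-glycan, so its own carbohydrate is made by enzymes of this set.

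Each library held 9732927 to 11807835 estimated counts. PDPN (ENSCAFG00000016363), the targeted transcript, had 9.98 CPM in KO#2 and 15.2 CPM in KO#1 of CMM12, against 87.8 CPM in the control, and 5.58 CPM in KO#2 and 5.59 CPM in KO#1 of CMM2, against 20.2 CPM in the control. CPM are counts scaled to the library size with TMM factors. Among the melanocytic markers MITF ranged over 10.7 to 21.7 TPM and GPNMB over 16.2 to 180 TPM in the 6 libraries, and PMEL over 0.41 to 1.82 TPM. TYRP1 had 62, 47 and 43 counts in KO#2, KO#1 and the control of CMM12, against 0 in every CMM2 library, and was called higher in CMM12 (edgeR adjusted p = 0.0038). DCT was at 0 and TYR, MLANA, SOX10 and S100B reached at most 0.21 TPM, so 5 of the 9 markers of the labelled cell type were absent or nearly so. Of the 4 leukocyte markers found in the tables, PTPRC, CD3E and LYZ were at 0, while CD79A had 3150 to 4542 TPM in every library, and the source of its reads was not tested. CMM2 KO#2 stood apart in its line: of the 8660 genes at a mean of 10 CPM or more, 6.8% differed at least 2-fold between it and the CMM2 control and 5.22% between it and CMM2 KO#1, against 1.26% between CMM2 KO#1 and the control. The corresponding shares in CMM12 were 4.76% between KO#2 and the control, 4.85% between KO#1 and the control, and 3.49% between KO#2 and KO#1.

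All 14 roles in the pathway had at least 1 transcript that could be tested, but coverage was uneven. All 6 ST3GAL, all 6 chondroitin chain, all 4 NDST, all 3 linker and both core 1 genes were tested, against 7 of 14 GALNT, 2 of 6 ST6GALNAC, 3 of 7 heparan O-sulfotransferase and 1 of 4 GCNT genes. The genes with no count in any library were GALNT3, GALNT9, GALNT13, GALNT14, GALNT18, GCNT2, GCNT4, ST6GALNAC1, ST6GALNAC2, ST6GALNAC3, B3GNT6, B4GALT6, HS3ST2 and HS6ST2. At these depths a count of 0 allows a level of up to 0.259 to 0.294 CPM per library, which is 3 counts. No gene carried the symbol GCNT1, GALNT4, GALNT7, CHST2, CHST15, HS2ST1 or HS3ST1, so the levels of these enzymes are not known here. Among the GCNT genes found by symbol, GCNT7 was the only one tested in the core 2 and branching role. It had 13 counts in KO#2, 3 in KO#1 and 1 in the control of CMM12, against 3, 1 and 5 counts in those of CMM2.

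Levels between genes are compared in TPM, which are scaled for transcript length. The highest mean level belonged to ST6GALNAC4, which adds sialic acid to the GalNAc of a sialylated core 1, at 138, 124 and 138 TPM in KO#2, KO#1 and the control of CMM12, against 154, 101 and 128 TPM in those of CMM2. The next means over the 6 libraries were those of B4GALT1, the main galactosyltransferase of N-acetyllactosamine, at 101 TPM, of GALNT2 at 98.4 TPM and of EXT2, a subunit of the heparan polymerase, at 96.9 TPM. Those means hide a difference between the lines: B4GALT1 averaged 72.8 ± 11.2 TPM in CMM12 and 129 ± 46.0 TPM in CMM2 (SD, n = 3 libraries a line). In CMM12 its mean was under those of GALNT2 (95.9 ± 23.3 TPM) and EXT2 (85.8 to 106 TPM), and in CMM2 it was beside that of ST6GALNAC4 (128 ± 26.7 TPM). The libraries of B4GALT1 and GALNT2, and those of GALNT2 and EXT2, overlapped in each line, so their order does not hold beyond the spread. Core 1 synthase was expressed in every library, C1GALT1 at 22.4 to 33.0 TPM and C1GALT1C1 at 28.3 to 75.6 TPM. In all, 29 of the 81 genes reached 10 TPM in every library and 4 reached 100 TPM in at least 1. Summed over all 81 genes, the level was 1643, 1389 and 1598 TPM in KO#2, KO#1 and the control of CMM12, against 1773, 1302 and 1264 TPM in those of CMM2. The sums of the lines overlap, and KO#2 had the highest sum in each line.

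**Figure D1:**
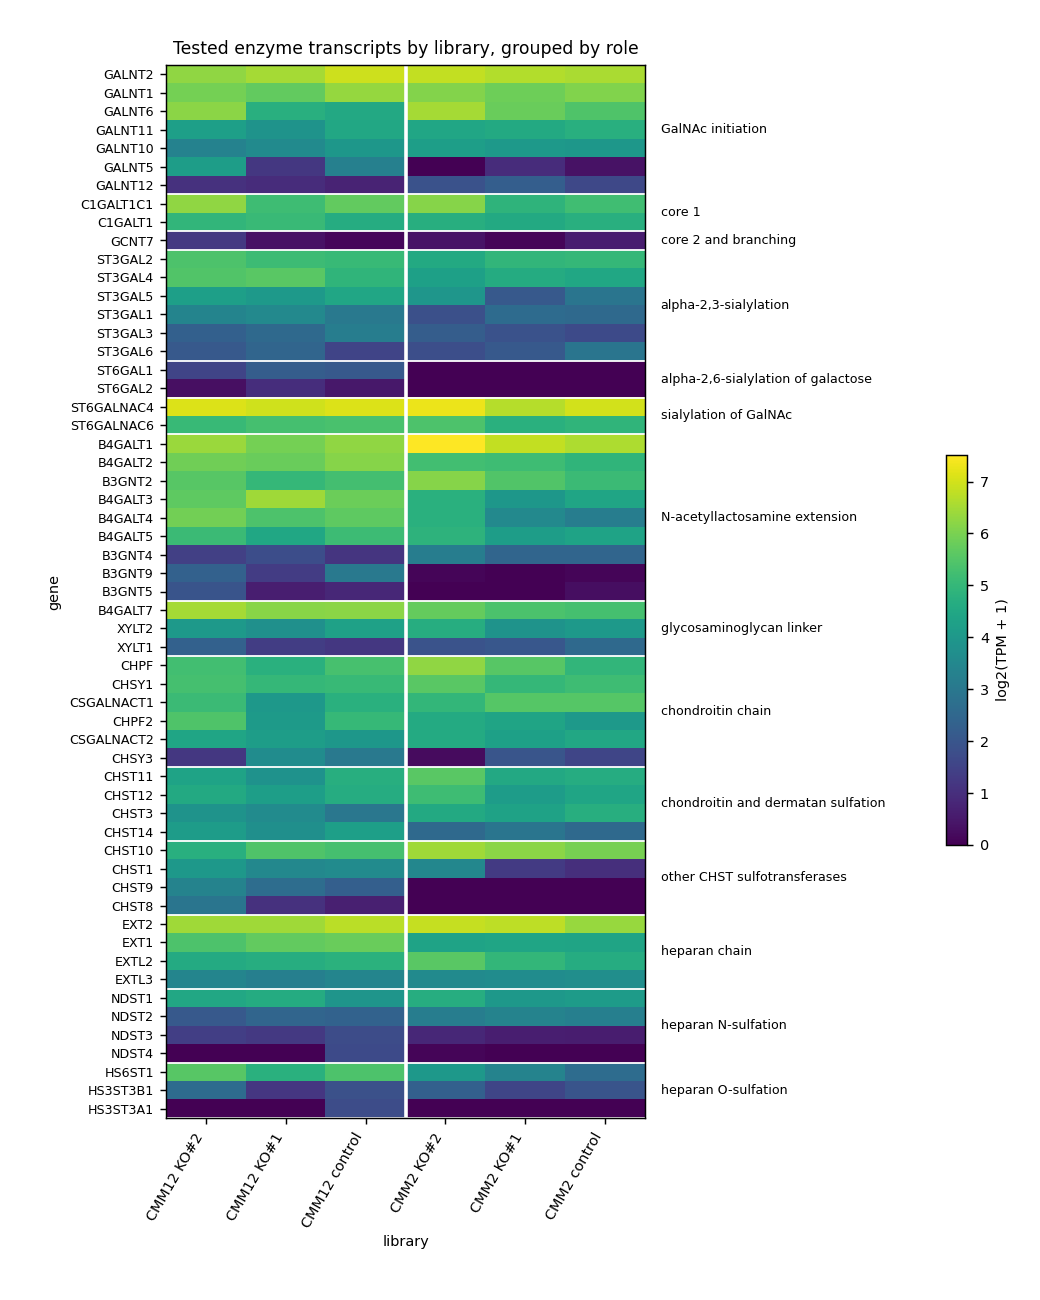
Level of each of the 57 tested enzyme transcripts (rows, grouped by role) in each of the 6 libraries (columns), as log2(TPM + 1) in colour. ST6GALNAC4, B4GALT1, GALNT2 and EXT2 are bright in every library, and ST6GAL1, ST6GAL2, CHST8 and CHST9 are at 0 in every CMM2 library.

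The first comparison asked how the glycan machinery of CMM12 differs from that of CMM2. Of the 57 tested enzymes, 13 were higher and 6 lower in CMM12 by edgeR's quasi-likelihood test at a Benjamini-Hochberg adjusted p under 0.05. The higher ones were CHST9, B3GNT9, EXT1, ST6GAL1, CHST14, B4GALT3, HS6ST1, CHST8, B4GALT4, B4GALT7, B4GALT2, GALNT5 and NDST3, and the lower ones were NDST2, CHST10, GALNT12, CHST3, B4GALT1 and B3GNT4. Over all 12270 genes tested, 14.6% were called higher, 11.2% lower and 25.8% in either direction. DESeq2 called 17 enzymes higher and 9 lower, against 17.7% higher, 14.5% lower and 32.2% in either direction over all genes, and its calls include all 19 of edgeR. The median log2 fold change was 0.13 over the enzymes and 0.04 over all genes, and the median absolute change 0.81 over the enzymes and 0.49 over all genes. In 31 enzymes the 3 libraries of one line all lay beyond the 3 of the other (54.4%, against 46.1% of all genes), 19 of them higher in CMM12 (33.3%, against 24.6% of all genes) and 12 lower (21.1%, against 21.5%).

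Part of these calls rests on genes that passed the count filter through CMM12 alone: 9 tested enzymes had under 10 counts in every CMM2 library, and none had under 10 in every CMM12 library. These 9 were B3GNT5, B3GNT9, CHST8, CHST9, GCNT7, HS3ST3A1, NDST4, ST6GAL1 and ST6GAL2. Of them, B3GNT9, CHST8, CHST9 and ST6GAL1 were called. Among the 48 enzymes with 10 counts or more in some library of each line, 9 were called higher and 6 lower, which is 31.2%, against 23.2% of the 10918 genes of that kind. EXT1, CHST14, B3GNT9, ST6GAL1 and CHST9 were called in each of 6 fits that left out 1 library. Of these, only EXT1 and CHST14 had 10 counts or more in some library of each line. B4GALT3 and CHST10 were called in 5 of these fits, B4GALT1, CHST3, CHST8 and NDST2 in 4, B4GALT4, B4GALT7, GALNT5, GALNT12 and HS6ST1 in 2, B4GALT2 and NDST3 in 1, and B3GNT4 in 0. The count of calls varied with the library left out, and so did the count over all genes. It was 7 without CMM2 KO#1 (1499 of 12231 genes called), 9 without the CMM2 control (1680 of 12257) and 10 without the CMM12 control (1717 of 12111). It was 12 without CMM12 KO#2 (1690 of 12070), 15 without CMM12 KO#1 (2120 of 12151) and 23 without CMM2 KO#2 (3096 of 12211).

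**Figure D2:**
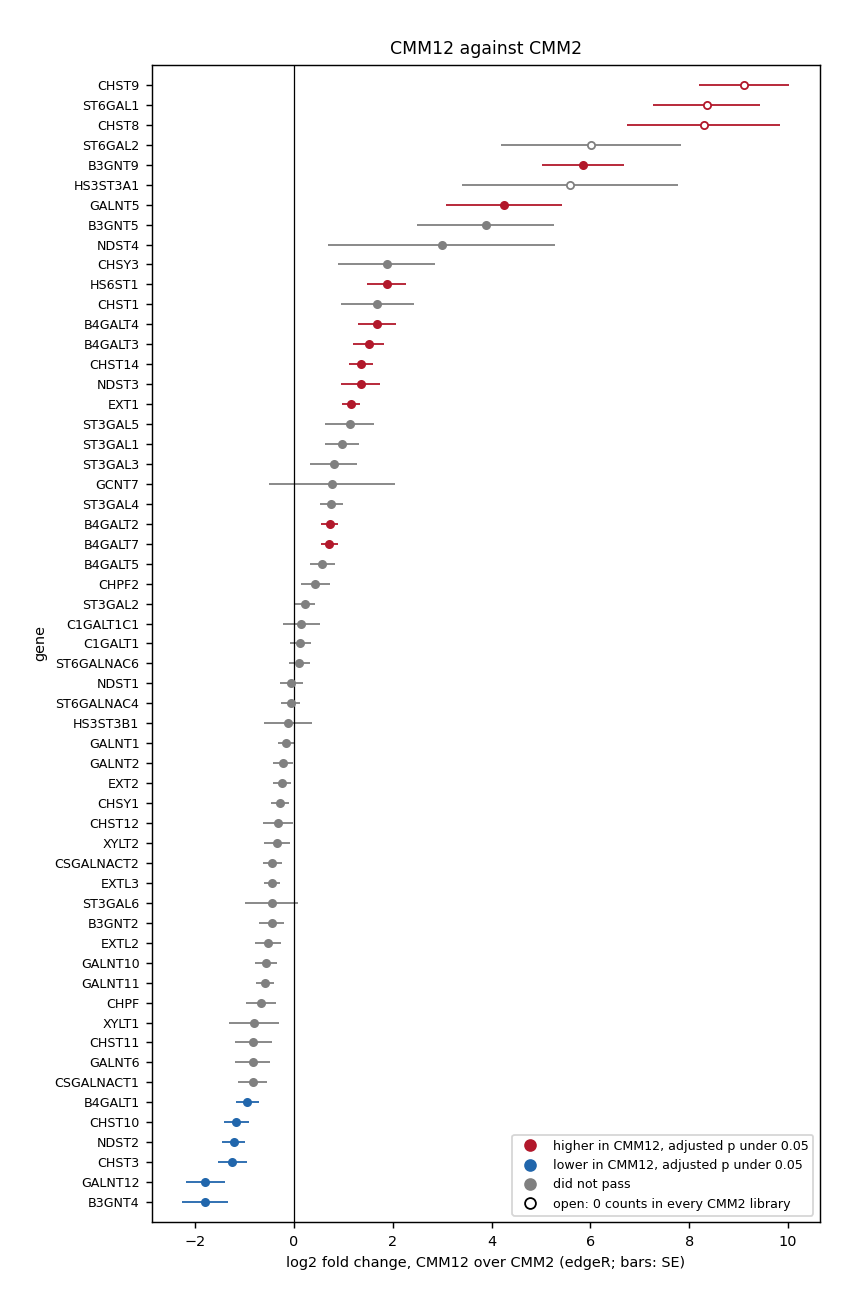
The log2 fold change of each tested enzyme, CMM12 over CMM2, with its SE from edgeR (points and bars; colour marks an adjusted p under 0.05, open points mark genes with 0 counts in every CMM2 library). The higher calls run from B4GALT2 and B4GALT7 at 0.72 to the genes with no counts in CMM2, whose fitted values depend on the prior count and are no measure of size.

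At the first step of O-glycosylation, no abundant GALNT transcript passed the test and the called ones were at low levels. GALNT5 had 29.4, 2.46 and 14.8 CPM in KO#2, KO#1 and the control of CMM12, against 0, 1.84 and 0.573 CPM in those of CMM2, a log2 fold change of 4.25 (SE 1.17, adjusted p = 0.035 by edgeR). CMM12 KO#1 came close to CMM2 KO#1, and the other 2 CMM12 libraries were far above all CMM2 libraries. GALNT12 had 1.86, 1.64 and 1.12 CPM in KO#2, KO#1 and the control of CMM12, against 5.01, 6.99 and 4.01 CPM in those of CMM2 (log2 −1.79, SE 0.39, adjusted p = 0.016 by edgeR), with no overlap. GALNT11 had 26.8, 22.5 and 31.8 CPM in CMM12, against 35.1, 40.3 and 45.5 CPM in CMM2, in the same order of libraries, and just missed the threshold (log2 −0.58, SE 0.18, edgeR adjusted p = 0.052), though DESeq2 called it (adjusted p = 0.020). GALNT2, the leading member, gave −0.22 (SE 0.20) and C1GALT1 and C1GALT1C1 gave 0.13 (SE 0.21) and 0.15 (SE 0.38), none of which passed.

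The sialyltransferase called by edgeR was ST6GAL1 (ENSCAFG00000013698), which caps galactose of N-glycans with sialic acid. Like ST6GAL2, it passed the count filter through CMM12 alone. It had 24, 53 and 47 counts in KO#2, KO#1 and the control of CMM12, or 2.35, 4.83 and 4.06 CPM, and 0 counts in every CMM2 library. That is at least 13.5-fold higher in CMM12, with the floor set at 3 counts per library, and the edgeR adjusted p was 0.0062. ST6GAL2, its close relative, had 24 counts over the 3 CMM12 libraries and 0 over those of CMM2, at least 2.62-fold higher, and did not pass (edgeR adjusted p = 0.064). No ST3GAL gene was called by edgeR, yet ST3GAL1, ST3GAL4 and ST3GAL5 had every CMM12 library above every CMM2 library. For ST3GAL5 the gap was narrow (edgeR adjusted p = 0.13). It had 18.4, 18.9 and 23.0 CPM in KO#2, KO#1 and the control of CMM12, against 16.5, 3.67 and 7.45 CPM in those of CMM2. ST3GAL4, which acts on lactosamine ends, had 34.0, 40.1 and 23.2 CPM in KO#2, KO#1 and the control of CMM12, against 16.2, 21.0 and 19.1 CPM in those of CMM2 (log2 0.76, SE 0.24, edgeR adjusted p = 0.052, DESeq2 adjusted p = 0.021). ST3GAL1, the main sialyltransferase of core 1, had 20.2, 24.9 and 15.4 CPM in CMM12, against 6.15, 12.4 and 12 CPM in CMM2, in the same order (log2 0.97, SE 0.34, edgeR adjusted p = 0.072, DESeq2 adjusted p = 0.043). The summed ST3GAL level was 119, 117 and 99.5 TPM in CMM12, against 64.4, 67.8 and 72.7 TPM in CMM2, without overlap. TPM put CMM12 higher relative to CMM2 than CPM do, by a median of 0.13 on the log2 scale over 9892 genes, so this TPM difference carries that shift. ST3GAL2 was the highest of the family in mean TPM over the 6 libraries. In CMM12, though, ST3GAL4 averaged 39.8 ± 9.20 TPM and ST3GAL2 36.1 ± 5.02 TPM (SD, n = 3 libraries), with overlap. Between lines, ST3GAL2 had 58.2, 52.7 and 45.2 CPM in CMM12, against 35.7, 47.3 and 50.1 CPM in CMM2, and ST6GALNAC4 had 96.8, 94.9 and 96.8 CPM against 120, 80.0 and 102 CPM. Both sets overlap, at log2 fold changes of 0.23 (SE 0.20) and −0.07 (SE 0.18).

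Among the enzymes that build N-acetyllactosamine, the share of B4GALT1 differed between the lines. B4GALT1 (ENSCAFG00000001840) had 88.8, 71.3 and 82.1 CPM in KO#2, KO#1 and the control of CMM12, against 219, 137 and 117 CPM in those of CMM2, a log2 fold change of −0.94 (SE 0.24, edgeR adjusted p = 0.027). Its relatives B4GALT2, B4GALT3 and B4GALT4, which are also lactosamine galactosyltransferases, were higher in CMM12. B4GALT3 had 67.3, 129 and 76.9 CPM in CMM12, against 40.1, 22.8 and 32.5 CPM in CMM2 (log2 1.51, SE 0.31). B4GALT4 had 46.7, 35.7 and 38.9 CPM in CMM12, against 23.1, 9.53 and 7.26 CPM in CMM2 (log2 1.68, SE 0.39). The highest CMM2 value of B4GALT4 belonged to CMM2 KO#2. B4GALT2 had 71.2, 73.3 and 87.7 CPM in CMM12, against 50.1, 49.4 and 41.0 CPM in CMM2 (log2 0.72, SE 0.17). None of these 4 genes overlapped between the lines, and edgeR adjusted p-values of the 3 relatives were 0.022 for B4GALT2, 0.013 for B4GALT3 and 0.019 for B4GALT4. limma on TPM called the 3 relatives in every form run, and B4GALT1 in none. B4GALT1 was also not called by edgeR without CMM12 KO#1 or without CMM12 KO#2. In TPM, B4GALT1 made up 24.4%, 20.2% and 22.8% of the summed level of this role in KO#2, KO#1 and the control of CMM12, against 48.3%, 47.2% and 45.0% in those of CMM2. It was the leading gene in every library but CMM12 KO#1, where B4GALT3 made up 28.7%. This is a share within each library that the scaling between libraries does not touch.

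The B3GNT enzymes start each lactosamine unit with N-acetylglucosamine. B3GNT2, the most abundant of them, had 37.0, 26.9 and 30.3 CPM in KO#2, KO#1 and the control of CMM12, against 61.9, 39.1 and 30.9 CPM in those of CMM2, and did not pass (log2 −0.45, SE 0.26). B3GNT9 (ENSCAFG00000020383) had 41, 18 and 85 counts in CMM12, against 1, 0 and 1 count in CMM2, in the same order. The ratio of the summed levels was 71.4 (exact counting interval 19.4 to 595), and the edgeR adjusted p was 0.0038. B3GNT4 was lower in CMM12, with 1.17, 1.82 and 0.863 CPM in KO#2, KO#1 and the control of CMM12, against 6.24, 3.50 and 3.53 CPM in those of CMM2 (log2 −1.79, SE 0.46, edgeR adjusted p = 0.028). B3GNT5, which starts lactosamine chains on glycolipids, had 34 counts over CMM12 and 2 over CMM2, a ratio of 16.9 with an exact counting interval of 4.32 to 145, and did not pass (edgeR adjusted p = 0.077).

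**Figure D3:**
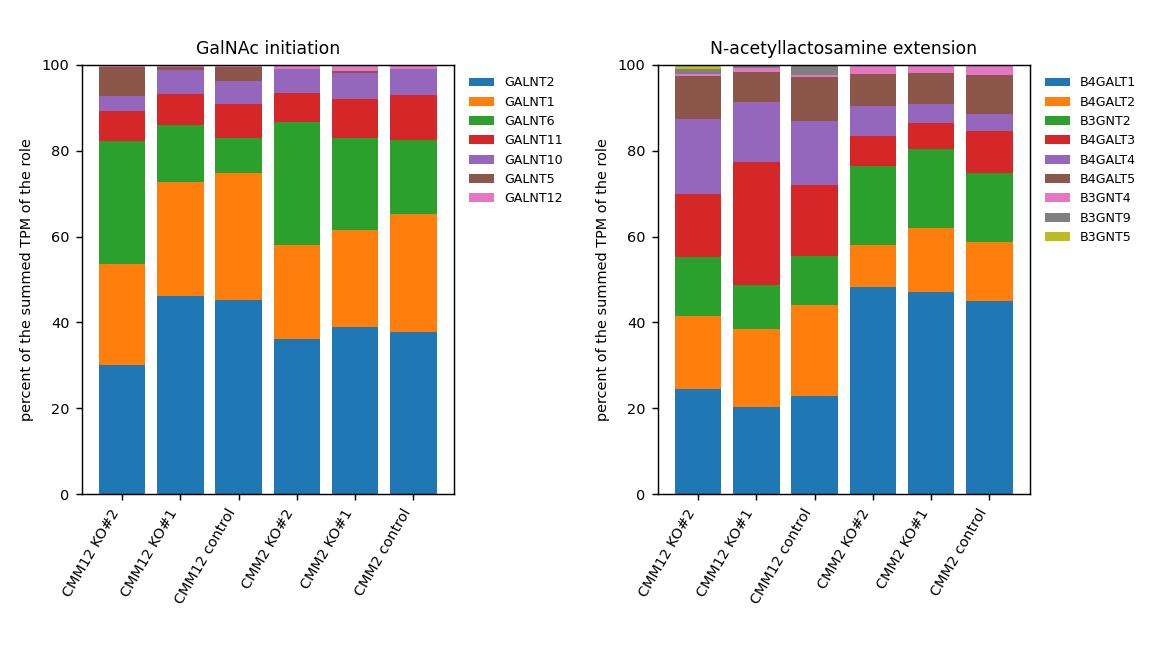
Share of each gene in the summed TPM of its role, in percent, per library (bars), for the GALNT genes on the left and the lactosamine genes on the right. B4GALT1 takes 20.2% to 24.4% in CMM12 libraries and 45.0% to 48.3% in CMM2 libraries, and GALNT6 takes its largest shares in both KO#2 libraries, 28.5% in CMM12 and 28.8% in CMM2.

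The linker that carries every chondroitin and heparan chain is begun by XYLT1 or XYLT2, which add xylose, and continued by B4GALT7. B4GALT7 had 77.2, 67.4 and 63.4 CPM in KO#2, KO#1 and the control of CMM12, against 49.7, 39.9 and 37.3 CPM in those of CMM2 (log2 0.72, SE 0.17, edgeR adjusted p = 0.020), without overlap. XYLT2 gave −0.34 (SE 0.27) and XYLT1 −0.81 (SE 0.51), and neither passed.

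In the chondroitin branch no chain enzyme was called, and the sulfotransferases were split. CHST14 (ENSCAFG00000009145), which sulfates dermatan, had 26.9, 21.6 and 28.8 CPM in KO#2, KO#1 and the control of CMM12, against 8.80, 12.1 and 9.17 CPM in those of CMM2 (log2 1.36, SE 0.24, edgeR adjusted p = 0.0077). CHST3, the chondroitin 6-sulfotransferase, went the other way, with 14.5, 13.2 and 7.51 CPM in CMM12, against 27.0, 23.2 and 31.1 CPM in CMM2, in the same order (log2 −1.24, SE 0.29, edgeR adjusted p = 0.019). Neither gene overlapped between lines. CHST11, a chondroitin 4-sulfotransferase and the highest of its role in mean TPM, had 12.6, 9.03 and 16 CPM in CMM12, against 33.1, 15.5 and 17.4 CPM in CMM2, and did not pass (log2 −0.82, SE 0.37, edgeR adjusted p = 0.14). CSGALNACT1, which adds the first GalNAc of a chondroitin chain, had 85.7, 41.5 and 67.0 CPM in CMM12, against 85.8, 129 and 132 CPM in CMM2. CMM12 KO#2 and CMM2 KO#2 were nearly level, and edgeR did not call it (log2 −0.83, SE 0.29, adjusted p = 0.072), while DESeq2 did (adjusted p = 0.033).

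Of the CHST genes outside chondroitin and dermatan, CHST8 and CHST9 place sulfate on terminal GalNAc, CHST1 on galactose of keratan sulfate, and CHST10 on glucuronic acid of the HNK-1 epitope. CHST9 (ENSCAFG00000018122) had 97, 60 and 47 counts in KO#2, KO#1 and the control of CMM12 and 0 in every CMM2 library, at least 22.9-fold higher in CMM12 (edgeR adjusted p = 0.0031). CHST8 had 87, 17 and 9 counts in those CMM12 libraries and 0 in every CMM2 library, at least 13.0-fold higher (edgeR adjusted p = 0.016), with most of its counts in CMM12 KO#2. CHST10 had 26.2, 47.3 and 39.7 CPM in CMM12, against 98.6, 84.2 and 72.2 CPM in CMM2 (log2 −1.16, SE 0.25, edgeR adjusted p = 0.015), without overlap. CHST1 had 18.6, 14 and 14.2 CPM in KO#2, KO#1 and the control of CMM12, against 13.9, 2.01 and 1.43 CPM in those of CMM2. CMM2 KO#2 nearly reached the CMM12 level, and CHST1 was not called with it (log2 1.69, SE 0.74, edgeR adjusted p = 0.13), whereas without CMM2 KO#2 it was (log2 3.13, edgeR adjusted p = 0.0021).

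In the heparan branch the polymerase subunits differed from each other. EXT1 (ENSCAFG00000000831) had 75.3, 101 and 101 CPM in KO#2, KO#1 and the control of CMM12, against 40.1, 42.5 and 41.7 CPM in those of CMM2 (log2 1.15, SE 0.17, edgeR adjusted p = 0.0046). Its partner EXT2 had 156, 170 and 194 CPM in CMM12, against 232, 220 and 169 CPM in CMM2, and did not pass (log2 −0.24, SE 0.18, edgeR adjusted p = 0.36). EXT1 did not overlap between lines and EXT2 did. NDST enzymes replace the acetyl group of heparan by sulfate, and NDST1, the highest of them, had 53.1, 64.1 and 37.3 CPM in CMM12, against 69.3, 41.7 and 46.3 CPM in CMM2 (log2 −0.05, SE 0.23). NDST2 had 8.51, 13.0 and 11 CPM in CMM12, against 23.3, 27.4 and 25.1 CPM in CMM2 (log2 −1.22, SE 0.24, edgeR adjusted p = 0.011). NDST3 had 4.89, 4.56 and 6.90 CPM in CMM12, against 2.55, 1.84 and 1.91 CPM in CMM2 (log2 1.35, SE 0.39, edgeR adjusted p = 0.041). Neither NDST2 nor NDST3 overlapped between lines. HS6ST1, the heparan 6-O-sulfotransferase, had 17.5, 10.9 and 15.7 CPM in CMM12, against 6.24, 4.02 and 2.29 CPM in CMM2 (log2 1.88, SE 0.40, edgeR adjusted p = 0.015), again without overlap.

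The second comparison set the KO libraries against the control of their line. No enzyme passed the threshold. Across lines, edgeR called 0 of 57 enzymes, against 0% of all genes, and 3 enzymes had an unadjusted p under 0.05, against 4.03% of all genes. DESeq2 and limma on log2(TPM + 1) called 0 enzymes as well, and DESeq2 called 0.0733% of all genes. In CMM12 edgeR called 0 enzymes, with 3 at an unadjusted p under 0.05 (0.00815% of all genes called, 5.99% at an unadjusted p under 0.05), and DESeq2 called 0 (0.326% of all genes). In CMM2 edgeR called 0, with 2 at an unadjusted p under 0.05 (0% and 1.9% of all genes), and DESeq2 called 0 (0.0489%). The smallest adjusted p of an enzyme by edgeR was 0.70 in CMM12, 1.00 in CMM2 and 0.99 across lines. The median log2 change of the enzymes was 0.07 across lines, −0.04 in CMM12 and 0.13 in CMM2, against 0.01, 0.02 and 0.00 over all genes, in the same order.

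All 4 KO libraries lay above their own controls for 3 enzymes (5.26%, against 10.5% of all genes) and below them for 3 (5.26%, against 10.6%). GALNT6, one of the O-glycan initiating enzymes, had 150 CPM in KO#2 and 58.6 CPM in KO#1 of CMM12, against 46.3 CPM in the control, and 207 CPM in KO#2 and 128 CPM in KO#1 of CMM2, against 101 CPM in the control. The fitted change across lines was 0.94 (SE 0.39, edgeR adjusted p = 0.99). KO#2 was high in both lines, and KO#1 was close to the control. GALNT12 and B4GALT7 were the other two, at 0.61 (SE 0.41) and 0.23 (SE 0.18). On the lower side, GALNT1, one of the broadly expressed GALNT enzymes, had 79.7 CPM in KO#2 and 74.4 CPM in KO#1 of CMM12, against 106 CPM in the control. In CMM2 it had 101 CPM in KO#2 and 85.7 CPM in KO#1, against 102 CPM in the control, and CMM2 KO#2 differed little from that control (across lines log2 −0.30, SE 0.17). GALNT11 gave −0.32 (SE 0.19) and B3GNT9 −1.30 (SE 0.72). None of these 6 enzymes passed. The core 1 genes gave 0.12 (SE 0.23) for C1GALT1 and 0.27 (SE 0.40) for C1GALT1C1, and ST6GALNAC4 gave −0.02 (SE 0.20).

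In CMM12 both KO libraries lay above the control for 17 enzymes (29.8%, against 35.6% of all genes) and below it for 20 (35.1%, against 34.2%). A pair of heparan sulfotransferases had counts in the control and none in either KO library. Both passed the count filter through the CMM12 control alone, so their folds rest on 1 library chosen by its high value. NDST4 had 0 counts in KO#2 and in KO#1, against 61 counts in the control, at least 18.6-fold lower in KO, and HS3ST3A1, a heparan 3-O-sulfotransferase, had 0 counts in both KO libraries, against 23 in the control, at least 7.0-fold lower. HS3ST3A1 is close in sequence to HS3ST3B1, so the split of reads between them is uncertain. Neither passed, with edgeR adjusted p-values of 0.70 for NDST4 and 0.78 for HS3ST3A1. Both genes were at or near 0 in CMM2 as well, NDST4 with 2 counts in KO#2 and 0 in KO#1, against 0 in the control. Of 40 enzymes at a mean of 10 CPM or more, 2 differed at least 2-fold between KO#2 and the control and 0 between KO#1 and the control. That is 5% and 0%, against 4.76% and 4.85% of all genes. Epithelial markers were highest in the CMM12 control: 3 of the 5 were listed and summed to 1.71 TPM in KO#2 and 1.28 TPM in KO#1, against 15.1 TPM in the control, most of it KRT14 at 13.0 TPM. The 5 fibroblast markers, of which RGS5 was at 0, summed to 1202 and 738 TPM in KO#2 and KO#1, against 1653 TPM in the control, so the KO libraries also differed from each other. The part of these marker differences in the enzyme values was not tested. CHST3 had 14.5 CPM in KO#2 and 13.2 CPM in KO#1, against 7.51 CPM in the CMM12 control (log2 0.88, SE 0.33, edgeR adjusted p = 0.80).

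The other large CMM12 differences did not pass either. XYLT1 had 8.42 CPM in KO#2 and 3.65 CPM in KO#1, against 2.76 CPM in the control (log2 1.12, SE 0.64). CHST8 gave 2.68 (SE 1.36), with the high value in KO#2 alone. ST3GAL3, a lactosamine sialyltransferase, had 2.54 CPM in KO#2 and 3.47 CPM in KO#1, against 5.26 CPM in the control (log2 −0.81, SE 0.62). GALNT2 had 103 CPM in KO#2 and 133 CPM in KO#1, against 166 CPM in the control (log2 −0.49, SE 0.26), and KO#2 was the lowest of its 6 libraries. CHST11 and NDST3 gave −0.56 (SE 0.50) and −0.55 (SE 0.56). GCNT7 had 13 counts in KO#2 and 3 in KO#1, against 1 in the control, and did not pass (edgeR adjusted p = 0.88). With the 16 KO counts summed, the ratio was 8.75, with an exact counting interval of 1.36 to 367. That interval leaves out the spread between the KO libraries, and most of the counts were in KO#2, so it does not show a rise in KO.

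In CMM2 both KO libraries lay above the control for 17 enzymes (29.8%, against 30.1% of all genes) and below it for 12 (21.1%, against 30.9%). CHPF, a chondroitin polymerising factor, had 184 CPM in KO#2 and 114 CPM in KO#1, against 74.9 CPM in the control (log2 0.99, SE 0.36, edgeR adjusted p = 1.00). ST3GAL6, a sialyltransferase of lactosamine, had 3.88 CPM in KO#2 and 4.98 CPM in KO#1, against 10.6 CPM in the control (log2 −1.26, SE 0.50, edgeR adjusted p = 1.00). B4GALT4 gave 1.16 (SE 0.57) and HS6ST1 1.16 (SE 0.56), CHST1 gave 2.46 (SE 1.14), and the highest value of each was in KO#2. CMM2 KO#2 differed at least 2-fold from the CMM2 control in 6 of 40 enzymes at a mean of 10 CPM or more, against 1 of 40 for CMM2 KO#1. That is 15% and 2.5%, against 6.8% and 1.26% of all genes, so all genes show a gap in the same direction between these 2 libraries. The 5 fibroblast markers summed to 1496 TPM in CMM2 KO#2 and 606 TPM in CMM2 KO#1, against 268 TPM in the CMM2 control, and their part in these values was not tested.

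**Figure D4:**
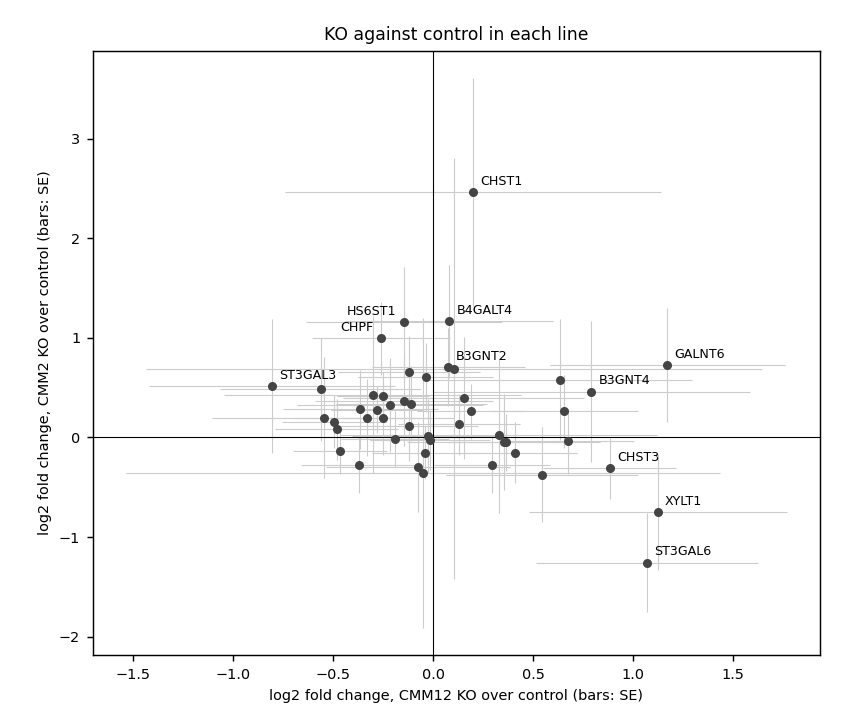
The log2 fold change of KO over control in CMM12 (x axis) and in CMM2 (y axis), with SE bars, for the 48 enzymes with 10 counts or more in some library of each line (points). ST3GAL6, XYLT1 and CHST3 lie at the lower right, above control in CMM12 and below it in CMM2, and CHST1, whose high CMM2 value is that of KO#2, stands highest.

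Several enzymes lay on opposite sides of the control in CMM12 and CMM2, though the test of the difference called 0 by edgeR, against 0% of all genes, with 4 at an unadjusted p under 0.05, against 3.84% of all genes. DESeq2 also called 0 of the enzymes, against 0.179% of all genes. ST3GAL6 (ENSCAFG00000009190) had 4.60 CPM in KO#2 and 6.29 CPM in KO#1 of CMM12, against 2.59 CPM in the control (log2 1.07, SE 0.55), opposite in sign to CMM2. The difference of the effects, CMM12 minus CMM2, was 2.33 (SE 0.75, edgeR adjusted p = 1.00). CHST3 had a difference of 1.19 (SE 0.45), CHPF of −1.25 (SE 0.49), and XYLT1 of 1.87 (SE 0.87), each with an edgeR adjusted p of 1.00. Both KO libraries lay on one side of the control in CMM12 and both on the other side in CMM2 for 13 enzymes (22.8%, against 21.2% of all genes). Above control in CMM12 and below it in CMM2 were C1GALT1, CHST3, GCNT7, ST3GAL2, ST3GAL6 and XYLT1 (10.5%, against 11% of all genes), and the reverse were B4GALT2, CHPF, EXT2, EXTL2, GALNT10, GALNT2 and ST3GAL3 (12.3%, against 10.2%).

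The third comparison set KO#2 against KO#1 in both lines, and asked whether KO lines of the same number differ alike. The labels do not say whether KO lines of the same number share a guide or anything else. By edgeR 0 of 57 enzymes passed, against 0% of all genes, with 5 at an unadjusted p under 0.05, against 4.56% of all genes. DESeq2 called 1, CHSY3, against 0.204% of all genes. CHSY3 (ENSCAFG00000030654), a chondroitin synthase, had 3.23 CPM in KO#2 and 30.9 CPM in KO#1 of CMM12, with 17.7 CPM in the control, and 0.473 CPM in KO#2 and 8.13 CPM in KO#1 of CMM2, with 5.54 CPM in the control. The counts were 33 in KO#2 and 339 in KO#1 of CMM12, and 5 in KO#2 and 93 in KO#1 of CMM2. KO#2 was the lowest and KO#1 the highest library of each line. The log2 fold change was −3.52 (SE 0.40) and the adjusted p 0.27 by edgeR. DESeq2 gave an adjusted p of 3.3e-06, the lowest over the alternatives run, and 1.00 was the highest, without CMM12 KO#1. CHSY1, its more abundant relative, had 72.0 CPM in KO#2 and 63.7 CPM in KO#1 of CMM12, and 98.7 CPM in KO#2 and 66.8 CPM in KO#1 of CMM2.

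The enzymes as a list leaned toward KO#2. KO#2 lay above KO#1 in both lines for 23 of 57 enzymes (40.4%, against 25.2% of all genes) and below it in both for 6 (10.5%, against 23.9%), which were CHSY3, EXT1, NDST2, ST3GAL1, ST3GAL4 and ST3GAL6. The median log2 change was 0.24 over the enzymes and 0.01 over all genes. In CMM12 the median of KO#2 over KO#1 was 0.13, with 34 enzymes higher (59.6%, against 51.2% of all genes) and 21 lower, against a median of 0.01 over all genes. In CMM2 it was 0.23, with 37 higher (64.9%, against 48.3% of all genes) and 14 lower, against a median of 0.00, in the line whose KO#2 library stood apart. The 5 fibroblast markers, of which RGS5 was at 0, summed to 1202 TPM in KO#2 and 738 TPM in KO#1 of CMM12, and to 1496 TPM in KO#2 and 606 TPM in KO#1 of CMM2, and their part in the enzyme values was not tested. These are counts of genes in the same 4 libraries, and no test was made of the list.

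The largest differences upward were in several steps of the pathway, and none passed. C1GALT1C1 (ENSCAFG00000018547), the chaperone of core 1 synthase, had 44.6 CPM in KO#2 and 22.8 CPM in KO#1 of CMM12, with 30.3 CPM in the control, and 45.5 CPM in KO#2 and 19.0 CPM in KO#1 of CMM2, with 24.4 CPM in the control (log2 1.12, SE 0.24, adjusted p = 0.94 by edgeR and 0.11 by DESeq2). C1GALT1 did not follow, with a log2 change of −0.06 (SE 0.28). HS3ST3B1, a heparan 3-O-sulfotransferase, had 16.8 CPM in KO#2 and 4.65 CPM in KO#1 of CMM12, with 8.54 CPM in the control, and 14.4 CPM in KO#2 and 7.34 CPM in KO#1 of CMM2, with 10.7 CPM in the control (log2 1.41, SE 0.36, edgeR adjusted p = 0.94). For both genes the control lay between KO#2 and KO#1 in each line. GALNT6, whose values are given above, gave 1.04 (SE 0.23, edgeR adjusted p = 0.94, DESeq2 adjusted p = 0.057). CHST1 gave 1.73 (SE 0.70) and B3GNT9 gave 1.45 (SE 0.79). CHST1 differed widely in CMM2 alone, where KO#2 had 13.9 CPM and KO#1 2.01 CPM.

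Downward, ST3GAL1 had 20.2 CPM in KO#2 and 24.9 CPM in KO#1 of CMM12, and 6.15 CPM in KO#2 and 12.4 CPM in KO#1 of CMM2 (log2 −0.61, SE 0.37). NDST2 gave −0.42 (SE 0.26), ST3GAL6 −0.42 (SE 0.65) and ST3GAL4 −0.30 (SE 0.29), and none of them passed. By 2-fold differences, KO#2 departed from KO#1 in 5 of 40 enzymes in CMM12 (12.5%, against 3.49% of all genes) and in 8 of 40 in CMM2 (20%, against 5.22%). CHSY3 was the only enzyme in both sets.

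**Figure D5:**
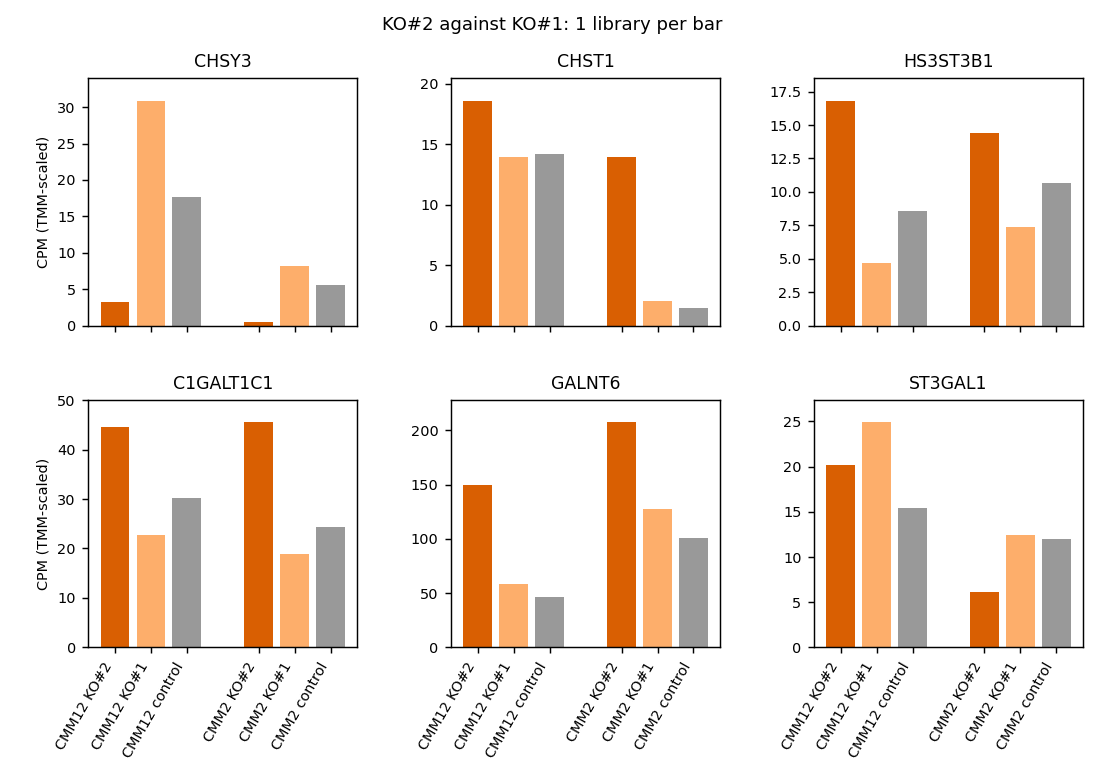
Level in each library, in CPM after TMM scaling (bars, 1 library each; CMM12 on the left of each panel and CMM2 on the right), of 6 enzymes with large differences between KO#2 and KO#1. CHSY3 is lowest in KO#2 of both lines, HS3ST3B1, C1GALT1C1 and GALNT6 are highest there, and the difference of CHST1 is mostly that of CMM2.

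Genes that supply the same pathway were listed beside the enzymes. Of 7 tested genes that make or move active sulfate (PAPS), 3 were higher and 0 lower in CMM12 by edgeR, of 17 that make or move nucleotide sugars 3 were higher and 1 lower, and of 8 linker and chain-modifying enzymes 2 were higher and 1 lower. Of 20 proteoglycan core proteins 5 were higher and 2 lower, and of 4 mucin-like proteins 2 were higher and 0 lower. Over all genes tested the shares are 14.6% higher and 11.2% lower. Of the 15 pathway genes called higher, 7 (ACAN, DCN, DSEL, GFPT2, HPSE, MCAM and PODXL) had under 10 counts in every CMM2 library and passed the count filter through CMM12 alone. None of the pathway genes was called by edgeR or DESeq2 in any KO comparison or between KO#2 and KO#1. The fits for CMM12 against CMM2 are those quoted in the sentences that follow.

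Among the sulfate genes PAPSS2, one of a pair of PAPS synthases, had 58.7, 10.9 and 20.4 CPM in KO#2, KO#1 and the control of CMM12, against 5.49, 6.55 and 2.01 CPM in those of CMM2 (log2 2.77, SE 0.59, edgeR adjusted p = 0.015). BPNT1, which degrades the by-product of sulfation, gave 1.06 (SE 0.14), SLC35B2, the PAPS transporter of the Golgi, gave 0.76 (SE 0.20), and IMPAD1 gave −0.40 (SE 0.22) and did not pass. For the sugars, UAP1, which makes UDP-GlcNAc, had 282, 296 and 362 CPM in CMM12, against 99.5, 105 and 102 CPM in CMM2 (log2 1.61, SE 0.15, edgeR adjusted p = 0.0011). GNPNAT1, an earlier enzyme of the same pathway, gave 0.83 (SE 0.20). PGM3, also of that pathway, gave −0.08 (SE 0.19) and did not pass. GFPT2 gave 5.91 (SE 1.44), and UGP2, the enzyme of UDP-glucose, was lower at −0.68 (SE 0.20). GFPT2 ranged from 0.821 CPM in KO#1 to 30.5 CPM in the control within CMM12, so its fitted change rests on uneven libraries.

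DSEL, a dermatan epimerase, had 19, 11 and 102 counts in KO#2, KO#1 and the control of CMM12, against 0, 0 and 2 counts in those of CMM2 (edgeR adjusted p = 0.0036), and HPSE, which cuts heparan chains, had 40, 41 and 19 counts in CMM12 and 0 in every CMM2 library (edgeR adjusted p = 0.0062). B3GAT3, the last enzyme of the linker, was lower at −0.70 (SE 0.21), opposite to B4GALT7, and FAM20B, the kinase of the linker xylose, gave −0.60 (SE 0.24) and did not pass. Of the core proteins that carry the chains, GPC4 gave 2.90 (SE 0.50) and CSPG5 3.29 (SE 0.41), both higher in CMM12. VCAN was lower at −0.96 (SE 0.18), with 471, 479 and 387 CPM in CMM12, against 1139, 798 and 683 CPM in CMM2, and CSPG4, the melanoma-associated chondroitin sulfate proteoglycan, was lower at −1.41 (SE 0.33). The mucin-like genes called were MCAM, an immunoglobulin-family adhesion molecule also known as MUC18, with 136, 154 and 183 counts in CMM12, against 0, 1 and 4 counts in CMM2, and PODXL, the sialomucin podocalyxin, with 30, 118 and 259 counts in CMM12, against 2, 5 and 0 counts in CMM2. MUC1 and CD164, at 0.53 (SE 0.23) and 0.17 (SE 0.18), did not pass.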

How the data were processed

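RNA from 6 libraries was sequenced, and each library's group follows its title and genotype label. An RNeasy mini kit and a NEBNext Ultra preparation from 1 µg of total RNA were used, per the labels' protocols. The submitters' processing notes name STAR 2.7.3a and RSEM 1.3.3, and CanFam3.1 as the build. No source used here gives the strand setting, so overlapping antisense genes and near-identical copies may share reads. The authors deposited expected counts per gene without scaling between libraries, and TPM values that are scaled for transcript length, per the file headers. Library totals were 9732927 to 11807835 counts, and 3 counts came to 0.259 to 0.294 CPM. All counting intervals and floors leave out every error other than counting.

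After rounding, the expected counts were tested with edgeR 4.0.16 in R 4.3.3 (quasi-likelihood, TMM factors, filterByExpr on the 4 groups, Benjamini-Hochberg at 0.05 over 12270 genes). CMM12 against CMM2, and KO against control across lines, came from an additive model of line and genotype with 3 residual degrees of freedom. KO effects per line and their difference came from 4 group means with 2 residual degrees of freedom, in which each lone control was assumed to vary like the KO pairs. KO#2 against KO#1 came from line and number. Standard errors were the fold change divided by the root of the quasi-likelihood F. Library values in comparisons are CPM with TMM scaling, and TPM serves for levels between genes. No library repeats another of its line: their counts differed with a chi-square of 14.5 to 59.5 for each degree of freedom. The steps were also run on simulated counts with the same spread for every gene. The changed genes there were well counted, so that run says nothing of genes with few counts.

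Members and lists were chosen with earlier results of these data known. Library values are given for members with an adjusted p under 0.05, for those with the largest changes among members at a mean of 1 CPM or more whose libraries did not overlap (8 a direction between lines, 5 in the other comparisons), and for the highest member of each role. Of the other pathway genes, the 4 with the smallest p between lines in each group are given. Genes named outside this rule were chosen after their values were seen. The tried alternatives were DESeq2 1.42.0, limma 3.58.1 on log2(TPM + 1) and log2(TPM + 0.1), other scaling and filters, other forms of the fit, KO libraries only, a replicate block, and leaving out each library. A fit without CMM2 KO#2 and the CMM12 control was added after seeing the data.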

Additional observations from a re-analysis of the deposited data

How the results depend on the processing

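Between CMM12 and CMM2 the count of enzymes called stayed within 1.5 times of 13 higher and 6 lower under DESeq2, median-of-ratios factors, other count filters, other forms of the quasi-likelihood fit and filtered limma. limma on log2(TPM + 1) with no filter called 3 lower, the KO libraries alone gave 8 higher and 3 lower, and the fit without CMM2 KO#2 and the CMM12 control, added after seeing the data, gave 4 higher and 0 lower. Over all genes these fits called 2419 of 16605, 1884 of 11474 and 681 of 12020, in that order. Leaving out 1 library gave 5 to 17 higher and 2 to 6 lower, with 1499 to 3096 calls over all genes. The limma fit used all 6 libraries and the others fewer, and the causes were not tested. In KO against control, 0 enzymes were called under every alternative run, except that limma with no filter called 2 in CMM12, NDST4 and HS3ST3A1. That fit called 75 of 16605 genes. Both enzymes had counts in the CMM12 control and none in its KO libraries, so these calls rest on 1 library chosen by its high value. For KO#2 against KO#1 the count was 1, CHSY3, by DESeq2 (25 of 12270 genes called) and with no low-count filter (4 of 16601). It was 0 under the other alternatives that kept every KO library. The fit without CMM12 KO#2 leaves 1 KO#2 library, and the log2 change of CHSY3 in it was −4.14. The labels do not say what KO libraries of the same number share, and their deviations were nearly uncorrelated (r = 0.057 across 12270 genes, 2 pairs). The replicate block gave 13 enzymes higher and 7 lower between lines, 17 of them among the 19 calls without it, and 2959 of 12270 genes called. In every KO comparison it called 0 enzymes. Of all 12270 genes, KO against control there called 8 in CMM12, 1 across lines and 0 in CMM2. Over 58 results of named enzymes, 952 alternative values held 853 on the same side of the threshold, 85 that lost and 12 that gained a call, and 2 of opposite sign. All 85 losses were between CMM12 and CMM2, 46 of them with 1 library left out and 39 under other alternatives. The other comparisons had no enzyme call to lose, so their unchanged values say nothing of how stable calls are. The 2 of opposite sign were ST3GAL6 between KO#2 and KO#1, at 0.05 without CMM2 KO#2 and 0.30 without CMM12 KO#1, in a range of −1.03 to 0.30 with 1 library left out. KO effects in a line, and their difference, could not be fitted without that line's control. With 3 counts at 0.259 to 0.294 CPM, depth limits genes listed at 0.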
